A study of Mus musculus with 12 samples.

Results

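The interaction of treadmill training and melanoma in the mouse heart was measured by RNA sequencing. It asks whether the difference between trained and untrained hearts was another in mice given melanoma cells than in tumour-free mice. For each gene it was computed in log2 units as (tumour trained minus tumour) minus (trained minus control), so that a value below 0 means that the training difference was lower with melanoma than without. All 12 libraries of the series entered, as 4 groups of 3, and the test ran over all genes of the deposited table (17397) that passed a filter on low counts. These were 12778 genes with 12 libraries, 12995 genes with tumour 3 as the lone untrained tumour library, and 13289 genes without tumour 3. A gene was called when the adjusted p of edgeR's quasi-likelihood test (Benjamini-Hochberg, over all genes tested) was below 0.05.

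All mice were wild-type C57BL/6J males aged 8 weeks. Tumour trained mice received B16F10 cells and ran. Tumour mice received B16F10 cells and did not run. Trained mice ran without melanoma cells, and control mice were labelled saline and stayed in their cages. Whether saline was also given to the trained mice is not stated. Running took place on 5 days a week for 4 weeks. It began with 1 week of adaptation, in steps of 5 min at speeds of 6 to 15 m/min. Later sessions were 5 min at 6 m/min followed by 35 min at 12 m/min. B16F10 is a mouse melanoma line of C57BL/6 origin, of which 100000 cells entered the tail vein, from week 2 on, as a model of cachexia, the wasting that accompanies cancer. No label ties a library to a mouse of its own, so the p-values speak of the scatter among libraries, part of which may be technical.

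Cachexia is known for high stress hormones, inflammatory signals and fatty acids in the blood. Striated muscle answers glucocorticoids, the stress hormones that act through the glucocorticoid receptor, with a set of direct target genes, and answers haem, metals and fatty acids with enzymes and binding proteins that handle them. Endurance running by itself is known to change how the heart uses fat. A gene that melanoma switched on in resting mice and not in runners would show an interaction below 0.

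The libraries of the tumour group differed from each other before any gene is considered. Melanocyte genes (Sox10, Pmel, Tyrp1, Dct and Mlana, 5 in all) made up 1.08% of the counts of tumour 1 (95% Wilson interval 1.08% to 1.09%) and 0.496% of tumour 2 (0.492% to 0.5001%). They were 0.00166% of tumour 3 (0.00144% to 0.00191%) and at most 0.00104% of each of the other 9 libraries. A list of 12 cardiomyocyte genes took 2.60% of the counts in tumour 1, 6.29% in tumour 2 and 9.89% in tumour 3, against 10.2% to 11.1% in the 9 other libraries. In bulk libraries, a share falls with fewer cells of a type, with less RNA per cell and with RNA added by other cells, such as melanoma cells. The source of the lower cardiomyocyte share in tumour 1 and 2 was not tested. Trained 2 also stood apart from its group, with a chi-square per gene of 30.7 and 33.01 to trained 1 and trained 3, against 4.37 between those 2. The extract protocol names livers although the tissue label is heart. Albumin (Alb), which hepatocytes make, did not exceed 3.93 CPM (counts per 1000000 counts) in any library, and Myh6, the motor protein of adult cardiomyocytes, reached 6525 CPM or more. Total counts ranged from 8843909 to 13344847 per library. Levels below are CPM scaled by the trimmed mean of M values (TMM).

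With all 12 libraries the interaction was called in 3 genes of 12778 (0.0235%), and all 3 were lower. They were Hmox1 (-3.63 ± 0.32, SE, edgeR adjusted p = 0.000819), Mt2 (-3.31 ± 0.24, edgeR adjusted p = 0.000205) and Fkbp5 (-2.20 ± 0.27, edgeR adjusted p = 0.016). A total of 1846 genes had an unadjusted p below 0.05. DESeq2 called 314 genes on the same 12 libraries, 43 of them higher. Scaling each library to its cardiomyocyte list left 1 of the 3 called, Hmox1. The count turned on which tumour libraries were used. It was 32 genes without tumour 1 and 2, 6 without tumour 1, and 4002 without tumour 3.

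With tumour 3 alone, 32 of 12995 genes were called (0.246%), of which 26 were lower (0.2%) and 6 higher (0.0462%). This fit kept the 9 libraries of the other groups and 1 tumour library, which is assumed to vary as much as the other groups do. A total of 1124 genes had an unadjusted p below 0.05, and DESeq2 called 101 genes, all 32 among them. Leaving out trained 2, the library that stood apart, gave 133 called genes, which again included all 32. The count was 8 without control 2, 15 without control 3, 13 without trained 1, 9 without tumour trained 1, 18 without tumour trained 2 and 10 without tumour trained 3. Every one of the 17 alternative settings kept tumour 3, so none tests the dependence on that library. The genes were also chosen by their call in these data. In the fit without tumour 3, 9 of the 32 genes had the opposite sign. All 32 genes kept their direction under each of the 17 settings. Of these, 8 were called under every one: Hmox1, Mt1, Mt2, Fkbp5, Serpina3n, Syt12, Spock2 and Ccl21a. The genes nearest to the threshold on the inner side were Gpihbp1, Acer2 and Gabarapl1, with edgeR adjusted p of 0.0413, 0.0434 and 0.0452. Those nearest on the outer side were Fgf16, at 0.0515, and Art4, Fbxo31, Baiap2, Ucp3 and Ky, each at 0.052.

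The fits with and without tumour 3 share 9 libraries, so they do not test each other. Among the 32 genes called with tumour 3 alone, 10 were also called in the same direction without tumour 3, where 30.1% of all genes were called. They were Angptl4, Hmox1, Mt2, Scd4, Serpina3n, Fkbp5, Mt1, Bcl2l1 and Plin2, which were lower, and Itgb6, which was higher. The 30.1% counts both directions, with 17.7% of all genes lower and 12.4% higher. The number that overlapped is therefore given as description and not read as a result about these genes. The other 22 were called in that direction with tumour 3 alone and not without it.

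**Figure D1:**
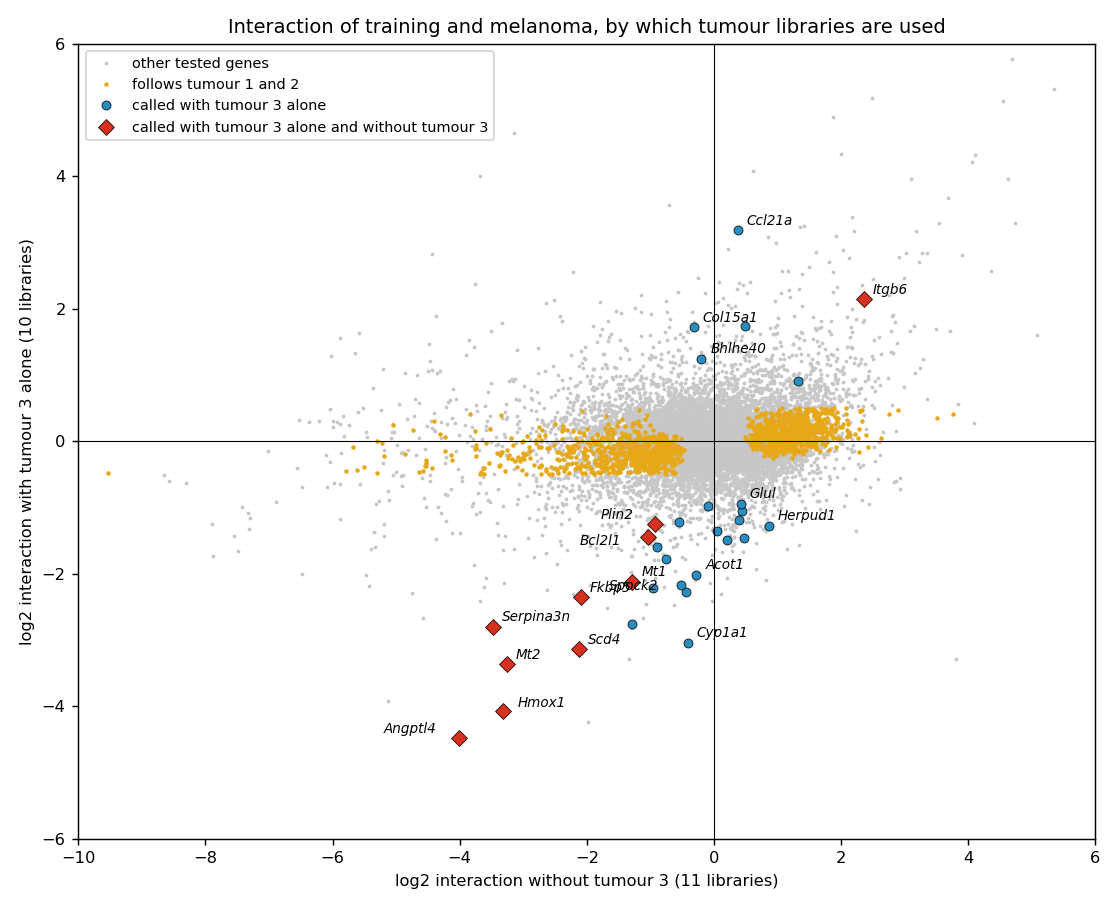
Log2 interaction of each gene tested in both fits (12864 genes), with tumour 3 alone on the vertical axis (10 libraries) and without tumour 3 on the horizontal axis (11 libraries), where 10 genes lie outside the axes. Red diamonds are the 10 genes called in both fits, blue circles the 22 others called with tumour 3 alone, and orange points the 1423 genes that follow tumour 1 and 2, which spread along the horizontal axis and stay near 0 on the vertical one.

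Hmox1, Mt2 and Mt1, which handle haem and metals, were high in all 3 untrained tumour libraries. Hmox1 encodes haem oxygenase, the inducible enzyme that breaks haem down to biliverdin, carbon monoxide and iron. Hmox1 (gene ID 15368) had 12.7, 10.7 and 10.5 CPM in the tumour trained libraries and 116, 169.6 and 231 CPM in the tumour libraries. Hmox1 stood at 11.2, 11.97 and 11.2 CPM in trained hearts and 14.2, 12.7 and 15.6 CPM in control hearts. Means of Hmox1 were 11.3 ± 1.20 CPM in tumour trained, 172 ± 57.5 CPM in tumour, 11.4 ± 0.457 CPM in trained and 14.1 ± 1.45 CPM in control hearts (SD, n = 3 each). All 3 tumour libraries stood well above the 9 others, which lay between 10.5 and 15.6 CPM, and the tumour trained libraries lay within or just below the tumour-free range. The interaction of Hmox1 was -4.07 ± 0.19 with tumour 3 alone (SE, edgeR adjusted p = 3.6e-06), made up of -4.37 for tumour trained minus tumour 3 and -0.30 for trained minus control. Without tumour 3, Hmox1 gave -3.32 ± 0.25 (edgeR adjusted p = 2.22e-05). On a list of 16 tested haem and iron genes, edgeR called Hmox1 alone and DESeq2 called 2 genes with tumour 3 alone, and the list's median interaction was -0.07, against -0.00 for all genes. Without tumour 3 edgeR called 6 of the 16 lower, where 17.7% of all genes were.

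Mt2 and Mt1 encode metallothioneins, small cysteine-rich proteins that bind zinc and copper. Mt2 (gene ID 17750) read 29.1, 21.3 and 26.2 CPM in tumour trained 1, 2 and 3, and 249, 218 and 242 CPM in tumour 1, 2 and 3. For Mt2, trained hearts gave 13.3, 17.3 and 19.3 CPM and control hearts 14.5, 15.9 and 16.1 CPM. Means of Mt2 were 25.5 ± 3.99 CPM in tumour trained, 236 ± 15.8 CPM in tumour, 16.6 ± 3.03 CPM in trained and 15.5 ± 0.884 CPM in control hearts (SD, n = 3 each). On the TMM scale the 3 tumour libraries were close to one another and did not overlap the rest. Levels in tumour 1 and 2 depend on the scaling, and the source of this RNA was not tested. The interaction of Mt2 was -3.36 ± 0.24 with tumour 3 alone (SE, edgeR adjusted p = 0.000121), made up of -3.26 for tumour trained minus tumour 3 and 0.11 for trained minus control. The fit without tumour 3 put Mt2 at -3.26 ± 0.24 (edgeR adjusted p = 2.22e-05). Mt1 (gene ID 17748) was measured at 165, 167 and 184 CPM in tumour trained hearts and at 487, 437 and 794 CPM in tumour hearts. Its values were 159.5, 175 and 173 CPM in trained hearts and 173, 173 and 199 CPM in control hearts. Means of Mt1 were 172 ± 10.2 CPM in tumour trained, 572 ± 193 CPM in tumour, 169 ± 8.53 CPM in trained and 182 ± 15.3 CPM in control hearts (SD, n = 3 each). Of all libraries tumour 3 was highest, and tumour 1 and 2 again lay above all 9 others. The interaction of Mt1 was -2.12 ± 0.15 with tumour 3 alone (SE, edgeR adjusted p = 0.000121), made up of -2.22 for tumour trained minus tumour 3 and -0.10 for trained minus control. For Mt1 the value without tumour 3 was -1.29 ± 0.19 (edgeR adjusted p = 0.000898). With tumour 3 alone, the 9 tested genes of a metallothionein and zinc transport list had a median interaction of 0.02. Without tumour 3 that median was -0.32. There edgeR called 3 of the 9 lower (Mt1, Mt2 and Slc39a10) and 0 higher, where 17.7% of all genes were lower.

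The promoters of Mt2 and Mt1 are shown because these neighbouring genes moved together and their regulation by metal is well studied. Metal-responsive transcription factor 1 is known to bind metal response elements, whose core is TGCRCNC, where R is A or G. The letters searched here were TGCNCNC, which are looser because they allow any base in place of R. The windows run from 250 bases before to 50 bases after the start site and come from RefSeq (GRCm38.p6), both on the + strand. Mt2 lies at chr8:94172368-94172667 and Mt1 at chr8:94178839-94179138. Capitals mark each match to TGCNCNC on either strand.
Mt2: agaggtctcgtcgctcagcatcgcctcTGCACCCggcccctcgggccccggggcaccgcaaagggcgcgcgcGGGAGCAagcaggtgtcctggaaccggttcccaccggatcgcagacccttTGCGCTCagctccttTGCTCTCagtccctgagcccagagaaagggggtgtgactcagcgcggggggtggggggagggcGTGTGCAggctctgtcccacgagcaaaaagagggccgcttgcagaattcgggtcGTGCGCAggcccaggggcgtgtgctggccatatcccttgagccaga
Mt1: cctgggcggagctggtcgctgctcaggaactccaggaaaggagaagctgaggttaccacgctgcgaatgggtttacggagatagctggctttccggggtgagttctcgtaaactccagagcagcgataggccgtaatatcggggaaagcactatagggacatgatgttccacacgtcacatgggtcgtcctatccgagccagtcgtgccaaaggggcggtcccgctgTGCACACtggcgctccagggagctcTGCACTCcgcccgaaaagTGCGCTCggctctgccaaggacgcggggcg
The Mt2 window holds 6 matches and the Mt1 window 3. Of 32851 promoter windows of the same length, 51.0% hold at least 1 match, 7.1% at least 3 and 0.225% at least 6. Of the 32 genes called with tumour 3 alone, 26 had a window in the table and 15 of those held at least 1 match. A match describes letters and not a bound site.

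Fkbp5, Serpina3n and Lrg1 belong to the stress hormone and acute phase genes. Fkbp5 encodes a partner protein of HSP90 that lowers the hormone binding of the glucocorticoid receptor, and is itself a target of that receptor. Fkbp5 (gene ID 14229) had 14.04, 20.5 and 12.3 CPM in the tumour trained libraries and 85.01, 70.2 and 89.5 CPM in the tumour libraries. Fkbp5 stood at 14.8, 16.8 and 14.8 CPM in trained hearts and 18.1, 16.7 and 17.9 CPM in control hearts. Means of Fkbp5 were 15.6 ± 4.31 CPM in tumour trained, 81.6 ± 10.1 CPM in tumour, 15.5 ± 1.16 CPM in trained and 17.6 ± 0.726 CPM in control hearts (SD, n = 3 each). Every tumour library was above every other library, and the tumour trained libraries overlapped the trained and control ones. The interaction of Fkbp5 was -2.36 ± 0.27 with tumour 3 alone (SE, edgeR adjusted p = 0.00578), made up of -2.54 for tumour trained minus tumour 3 and -0.18 for trained minus control. In the fit without tumour 3, Fkbp5 had -2.10 ± 0.27 (edgeR adjusted p = 0.000472).

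Serpina3n encodes a secreted inhibitor of serine proteases that is induced in the acute phase response. Serpina3n (gene ID 20716) read 22.2, 17.04 and 23.1 CPM in tumour trained 1, 2 and 3, and 106, 298 and 121 CPM in tumour 1, 2 and 3. For Serpina3n, trained hearts gave 16.2, 13.3 and 14.7 CPM and control hearts 12.8, 12.4 and 12.2 CPM. Means of Serpina3n were 20.8 ± 3.28 CPM in tumour trained, 175 ± 107 CPM in tumour, 14.7 ± 1.49 CPM in trained and 12.5 ± 0.328 CPM in control hearts (SD, n = 3 each). Tumour 2 was the highest of all libraries, and all 3 tumour libraries were above 23.1 CPM, the highest of the 9 others. The interaction of Serpina3n was -2.80 ± 0.22 with tumour 3 alone (SE, edgeR adjusted p = 0.000178), made up of -2.56 for tumour trained minus tumour 3 and 0.24 for trained minus control. Serpina3n reached -3.48 ± 0.45 (edgeR adjusted p = 0.000473) without tumour 3. Lrg1 encodes leucine-rich alpha-2-glycoprotein, a secreted protein of the same response. Lrg1 (gene ID 76905) was measured at 37.5, 34.2 and 33.8 CPM in tumour trained hearts and at 36.6, 101 and 108 CPM in tumour hearts. Its values were 35.8, 45.7 and 37.03 CPM in trained hearts and 36.96, 40.5 and 45.1 CPM in control hearts. Means of Lrg1 were 35.2 ± 2.03 CPM in tumour trained, 82.2 ± 39.6 CPM in tumour, 39.5 ± 5.40 CPM in trained and 40.9 ± 4.09 CPM in control hearts (SD, n = 3 each). Tumour 2 and 3 were above all other libraries, while tumour 1 lay among them. The interaction of Lrg1 was -1.60 ± 0.20 with tumour 3 alone (SE, edgeR adjusted p = 0.0116), made up of -1.64 for tumour trained minus tumour 3 and -0.05 for trained minus control.

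Of 24 tested glucocorticoid receptor targets on a list, 5 were lower and 0 higher with tumour 3 alone (Fkbp5, Mt1, Mt2, Angptl4 and Serpina3n), where 0.2% of all genes were lower. The list's median interaction was -0.76, against -0.00 over all genes, and 15 of the 24 had an unadjusted p below 0.05, as had 8.65% of all genes. Its median was -0.80 for tumour trained minus tumour 3 and -0.14 for trained minus control. Without tumour 3 the same list gave 6 lower and 7 higher genes with a median of -0.14, against 17.7% lower and 12.4% higher over all genes. Scaled to the cardiomyocyte list, 15 were lower and 0 higher with a median of -1.81. On that scale 74.8% of all genes were lower and 0.203% higher, with a median of -1.88, so the list did not stand below the rest. Pdk4, the kinase that blocks the entry of pyruvate into the citrate cycle, is a further target on the list. Pdk4 (gene ID 27273) had 417, 886 and 511 CPM in the tumour trained libraries and 753, 1393 and 4002 CPM in the tumour libraries. Pdk4 stood at 1392, 1126 and 567 CPM in trained hearts and 376, 765 and 977 CPM in control hearts. Means of Pdk4 were 605 ± 248 CPM in tumour trained, 2049.7 ± 1721 CPM in tumour, 1028 ± 421 CPM in trained and 706 ± 305 CPM in control hearts (SD, n = 3 each). Tumour 3 was the highest library by far, but the libraries of every group differed widely. Its interaction of -3.28 ± 0.64 did not pass (edgeR adjusted p = 0.0773). The 16 tested acute phase and STAT3 genes, Serpina3n and Lrg1 among them, had a median of -0.06 with tumour 3 alone. Without tumour 3, edgeR called 4 of the 16 lower and 0 higher, with a median of -0.43, where 17.7% of all genes were lower. Scaled to the cardiomyocyte list, 13 of the 16 were lower with a median of -2.02, where 74.8% of all genes were lower with a median of -1.88.

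**Figure D2:**
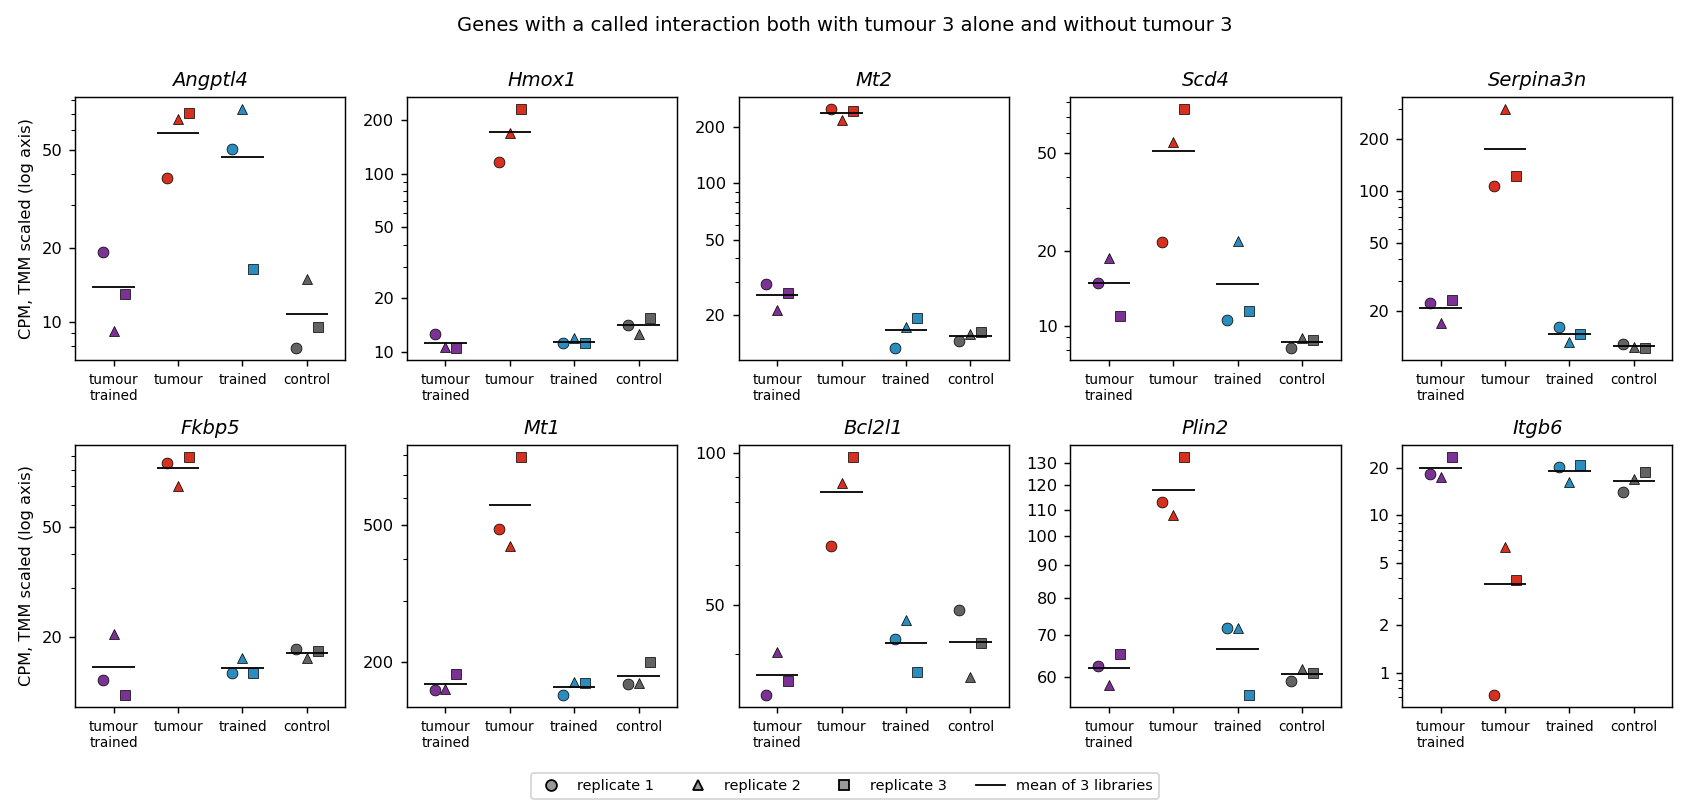
CPM of the 10 genes called with tumour 3 alone and without tumour 3, one panel per gene on a log axis, with a marker shape per replicate number and a line at the mean of the 3 libraries of a group. In Hmox1, Mt2, Serpina3n, Fkbp5, Mt1, Bcl2l1 and Plin2 all 3 tumour libraries lie above the 9 others, and in Itgb6 all 3 lie below them.

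A further group of genes that were lower handles fat. Angptl4 encodes a secreted protein that inhibits lipoprotein lipase, the enzyme that frees fatty acids from blood lipoproteins. Angptl4 (gene ID 57875) read 19.3, 9.17 and 13.05 CPM in tumour trained 1, 2 and 3, and 38.6, 66.8 and 70.7 CPM in tumour 1, 2 and 3. For Angptl4, trained hearts gave 50.4, 73.3 and 16.5 CPM and control hearts 7.85, 14.99 and 9.57 CPM. Means of Angptl4 were 13.8 ± 5.12 CPM in tumour trained, 58.7 ± 17.5 CPM in tumour, 46.7 ± 28.6 CPM in trained and 10.8 ± 3.73 CPM in control hearts (SD, n = 3 each). Trained 1 and 2 reached the levels of the tumour libraries, so no tumour library stood above all 9 others. The interaction of Angptl4 was -4.48 ± 0.74 with tumour 3 alone (SE, edgeR adjusted p = 0.039), made up of -2.37 for tumour trained minus tumour 3 and 2.12 for trained minus control. Neither component passed the test alone (edgeR adjusted p = 0.0962 and 0.434). Without tumour 3 the interaction of Angptl4 was -4.01 ± 0.70 (edgeR adjusted p = 0.00266). Gpihbp1 encodes the protein of capillary endothelium that carries lipoprotein lipase to the vessel lumen. Gpihbp1 (gene ID 68453) was measured at 74.9, 75.8 and 85.5 CPM in tumour trained hearts and at 45.5, 83.7 and 186 CPM in tumour hearts. Its values were 94.4, 94.7 and 85.2 CPM in trained hearts and 90.9, 85.4 and 113 CPM in control hearts. Means of Gpihbp1 were 78.7 ± 5.91 CPM in tumour trained, 105 ± 72.9 CPM in tumour, 91.5 ± 5.40 CPM in trained and 96.5 ± 14.7 CPM in control hearts (SD, n = 3 each). The highest level was in tumour 3 and the lowest in tumour 1. The interaction of Gpihbp1 was -1.18 ± 0.20 with tumour 3 alone (SE, edgeR adjusted p = 0.0413), made up of -1.26 for tumour trained minus tumour 3 and -0.08 for trained minus control. The sum of 12 endothelial marker genes, on the plain library total, was 3004 CPM for tumour 3. It was 1110 CPM for tumour 1 and 2034 CPM for tumour 2, and the 9 other libraries ranged from 2318 to 2742 CPM. For these 12 genes, edgeR and DESeq2 made 0 calls with tumour 3 alone, and 2 had an unadjusted p below 0.05. Their part in the Gpihbp1 result was not tested.

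Plin2 coats lipid droplets, and Hsd17b11, a steroid dehydrogenase, is also found on them. Plin2 (gene ID 11520) had 62.5, 58.4 and 65.3 CPM in the tumour trained libraries and 113, 108 and 133 CPM in the tumour libraries. Plin2 stood at 71.6, 71.7 and 56.2 CPM in trained hearts and 59.3, 61.9 and 60.9 CPM in control hearts. Means of Plin2 were 62.1 ± 3.51 CPM in tumour trained, 118 ± 13.4 CPM in tumour, 66.5 ± 8.94 CPM in trained and 60.7 ± 1.33 CPM in control hearts (SD, n = 3 each). All 3 tumour libraries lay above the 9 others, which did not exceed 71.7 CPM. The interaction of Plin2 was -1.25 ± 0.18 with tumour 3 alone (SE, edgeR adjusted p = 0.0215), made up of -1.12 for tumour trained minus tumour 3 and 0.13 for trained minus control. Plin2 had -0.93 ± 0.18 (edgeR adjusted p = 0.00489) without tumour 3. Hsd17b11 (gene ID 114664) read 46.2, 46.2 and 35.99 CPM in tumour trained 1, 2 and 3, and 58.98, 53.1 and 85.7 CPM in tumour 1, 2 and 3. For Hsd17b11, trained hearts gave 40.03, 36.6 and 40.2 CPM and control hearts 35.5, 35.4 and 31.02 CPM. Means of Hsd17b11 were 42.8 ± 5.90 CPM in tumour trained, 65.9 ± 17.3 CPM in tumour, 38.9 ± 2.04 CPM in trained and 33.99 ± 2.57 CPM in control hearts (SD, n = 3 each). The 3 tumour libraries were again above all others. The interaction of Hsd17b11 was -1.21 ± 0.20 with tumour 3 alone (SE, edgeR adjusted p = 0.0366), made up of -1.02 for tumour trained minus tumour 3 and 0.19 for trained minus control.

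Scd4, Acot1 and Ehhadh encode enzymes that work on fatty acids bound to coenzyme A. Scd4 puts a double bond into saturated ones. Scd4 (gene ID 329065) was measured at 14.9, 18.8 and 10.9 CPM in tumour trained hearts and at 21.8, 55.5 and 75.1 CPM in tumour hearts. Its values were 10.6, 22.03 and 11.5 CPM in trained hearts and 8.14, 8.96 and 8.73 CPM in control hearts. Means of Scd4 were 14.9 ± 3.91 CPM in tumour trained, 50.8 ± 26.99 CPM in tumour, 14.7 ± 6.36 CPM in trained and 8.61 ± 0.422 CPM in control hearts (SD, n = 3 each). Tumour 2 and 3 were above every other library, while tumour 1 lay just below trained 2. The interaction of Scd4 was -3.14 ± 0.43 with tumour 3 alone (SE, edgeR adjusted p = 0.0178), made up of -2.35 for tumour trained minus tumour 3 and 0.79 for trained minus control. Without tumour 3, Scd4 was at -2.13 ± 0.54 (edgeR adjusted p = 0.0152). Acot1 releases the free fatty acid in the cytosol. Acot1 (gene ID 26897) had 21.3, 29.9 and 18.3 CPM in the tumour trained libraries and 41.3, 23.2 and 104 CPM in the tumour libraries. Acot1 stood at 21.4, 22.6 and 20.003 CPM in trained hearts and 20.97, 24.6 and 26.3 CPM in control hearts. Means of Acot1 were 23.2 ± 6.00 CPM in tumour trained, 56.1 ± 42.3 CPM in tumour, 21.3 ± 1.28 CPM in trained and 23.96 ± 2.72 CPM in control hearts (SD, n = 3 each). The highest library was tumour 3, tumour 1 lay above the 9 libraries of the other groups, and tumour 2 lay among them. The interaction of Acot1 was -2.01 ± 0.27 with tumour 3 alone (SE, edgeR adjusted p = 0.0178), made up of -2.18 for tumour trained minus tumour 3 and -0.17 for trained minus control. Ehhadh is an enzyme of beta-oxidation in peroxisomes. Ehhadh (gene ID 74147) read 24.1, 25.2 and 19.8 CPM in tumour trained 1, 2 and 3, and 27.9, 24.6 and 90.4 CPM in tumour 1, 2 and 3. For Ehhadh, trained hearts gave 24.02, 32.2 and 22.9 CPM and control hearts 15.7, 23.3 and 26.3 CPM. Means of Ehhadh were 23.03 ± 2.87 CPM in tumour trained, 47.6 ± 37.1 CPM in tumour, 26.4 ± 5.07 CPM in trained and 21.8 ± 5.45 CPM in control hearts (SD, n = 3 each). Only tumour 3 was high. The interaction of Ehhadh was -2.27 ± 0.32 with tumour 3 alone (SE, edgeR adjusted p = 0.0181), made up of -1.99 for tumour trained minus tumour 3 and 0.28 for trained minus control. Scd4 and Acot1 have close paralogs, and how shared reads were divided is not given in the sources used here.

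Angptl4, Acot1 and Plin2 belong to a list of 35 tested genes of fatty acid uptake, oxidation and lipid droplets. The list's median interaction was -0.26 with tumour 3 alone, against -0.00 for all genes. Without tumour 3 it was 0.73, with 15 higher and 2 lower, against 12.4% higher and 17.7% lower over all genes. Scaled to the cardiomyocyte list it was -0.92, with 17 lower and 0 higher, where 74.8% of all genes were lower and their median was -1.88. Ucp3, a mitochondrial carrier of the same list, had -2.10 ± 0.37 with tumour 3 alone and just missed the threshold.

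**Figure D3:**
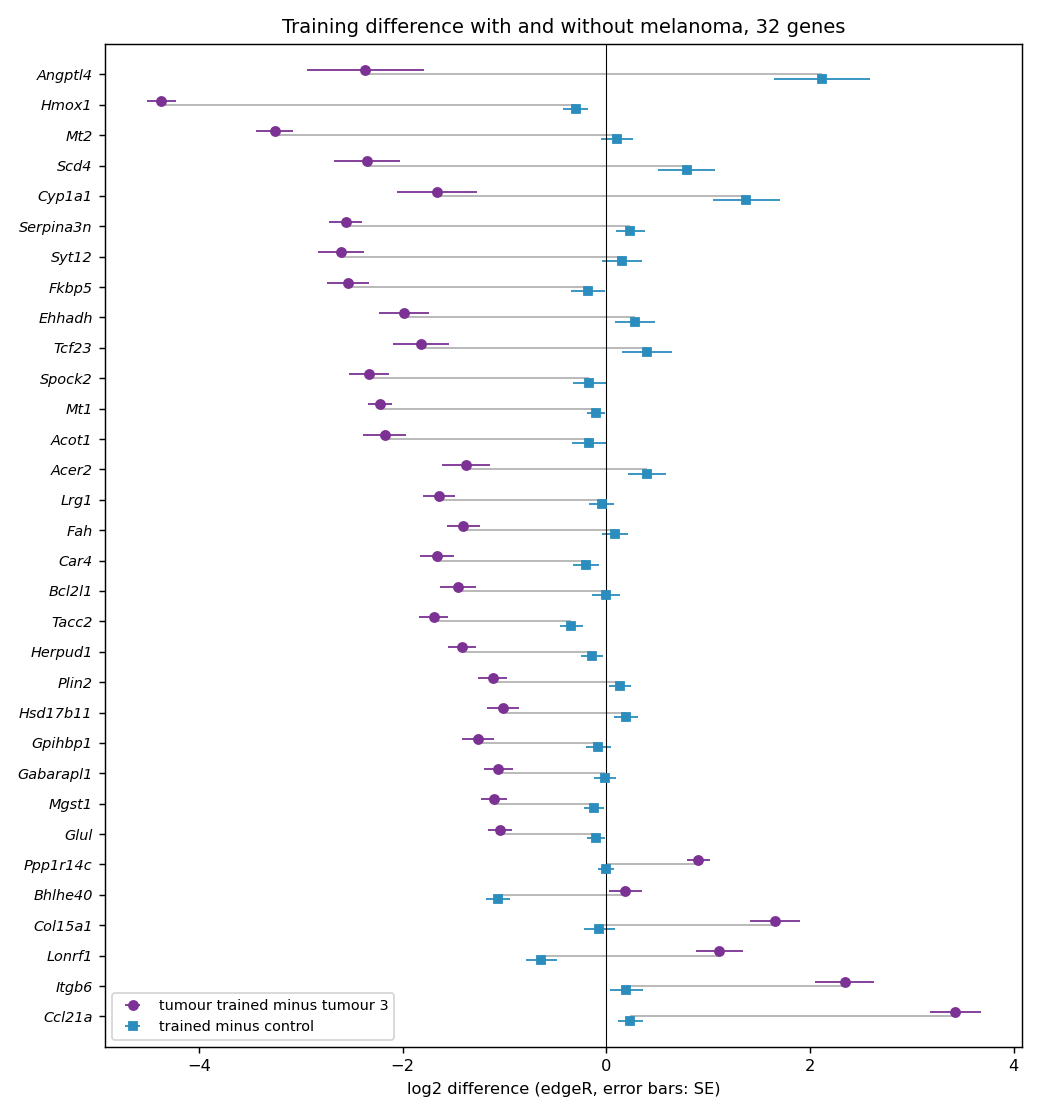
Log2 difference between trained and untrained hearts for the 32 genes called with tumour 3 alone, with purple circles for tumour trained minus tumour 3 and blue squares for trained minus control (edgeR, error bars are SE). For most genes the blue square is near 0 and the purple circle is not, while Angptl4, Scd4, Cyp1a1, Lonrf1 and Bhlhe40 have a visible difference without melanoma too.

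Bcl2l1, Gabarapl1 and Herpud1 concern cell survival, autophagy and protein quality. Bcl2l1 encodes BCL-XL, which protects against apoptosis. Bcl2l1 (gene ID 12048) was measured at 33.2, 40.5 and 35.5 CPM in tumour trained hearts and at 65.7, 87.5 and 98.6 CPM in tumour hearts. Its values were 42.9, 46.7 and 36.9 CPM in trained hearts and 49.02, 36.01 and 42.2 CPM in control hearts. Means of Bcl2l1 were 36.4 ± 3.73 CPM in tumour trained, 83.9 ± 16.7 CPM in tumour, 42.2 ± 4.95 CPM in trained and 42.4 ± 6.51 CPM in control hearts (SD, n = 3 each). The 3 tumour libraries were the highest of the 12. The interaction of Bcl2l1 was -1.45 ± 0.23 with tumour 3 alone (SE, edgeR adjusted p = 0.0347), made up of -1.46 for tumour trained minus tumour 3 and -0.01 for trained minus control. For Bcl2l1 the fit without tumour 3 gave -1.03 ± 0.24 (edgeR adjusted p = 0.0113). Gabarapl1 encodes a protein of the autophagosome membrane. Gabarapl1 (gene ID 57436) had 128, 139.9 and 128 CPM in the tumour trained libraries and 89.4, 111 and 272 CPM in the tumour libraries. Gabarapl1 stood at 125, 147 and 126 CPM in trained hearts and 146, 118 and 137 CPM in control hearts. Means of Gabarapl1 were 132 ± 7.08 CPM in tumour trained, 157 ± 99.9 CPM in tumour, 132 ± 12.3 CPM in trained and 134 ± 14.1 CPM in control hearts (SD, n = 3 each). Tumour 3 was above and tumour 1 and 2 were below all 9 others. The interaction of Gabarapl1 was -1.05 ± 0.18 with tumour 3 alone (SE, edgeR adjusted p = 0.0452), made up of -1.06 for tumour trained minus tumour 3 and -0.02 for trained minus control. It belongs to a list of 27 tested genes of muscle atrophy and FoxO signalling. That list had a median of -0.49 with tumour 3 alone, against -0.00 for all genes, and of 0.35 without tumour 3. The median without tumour 3 became -1.28 when scaled to the cardiomyocyte list, against -1.88 for all genes on that scale. Fbxo31 of this list, a subunit of a ubiquitin ligase, had -1.03 ± 0.18 and just missed the threshold.

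Herpud1 encodes a membrane protein of the endoplasmic reticulum that serves the removal of misfolded proteins. Herpud1 (gene ID 64209) read 267, 311 and 264 CPM in tumour trained 1, 2 and 3, and 125, 224 and 742 CPM in tumour 1, 2 and 3. For Herpud1, trained hearts gave 252, 239 and 232 CPM and control hearts 249, 244 and 304 CPM. Means of Herpud1 were 281 ± 26.2 CPM in tumour trained, 364 ± 332 CPM in tumour, 241 ± 10.5 CPM in trained and 266 ± 33.5 CPM in control hearts (SD, n = 3 each). The top library was tumour 3, and tumour 1 and 2 were the lowest pair. The interaction of Herpud1 was -1.28 ± 0.18 with tumour 3 alone (SE, edgeR adjusted p = 0.0181), made up of -1.42 for tumour trained minus tumour 3 and -0.14 for trained minus control. It was the only one of the 32 genes with a called interaction of opposite sign without tumour 3, at 0.87 ± 0.30 (edgeR adjusted p = 0.0469). With tumour 3 alone, the 21 tested genes of the integrated stress response and protein folding had a median of 0.15. Without tumour 3, edgeR called 2 of them higher (Herpud1 and Hspa1a) and 7 lower, where 12.4% of all genes were higher and 17.7% lower.

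Another set were enzymes of detoxification and of amino acid, acid-base and sphingolipid metabolism. Cyp1a1 is a monooxygenase induced through the aryl hydrocarbon receptor. Cyp1a1 (gene ID 13076) was measured at 6.55, 6.04 and 11.2 CPM in tumour trained hearts and at 0.359, 8.07 and 24.8 CPM in tumour hearts. Its values were 11.2, 11.8 and 13.2 CPM in trained hearts and 2.30, 4.87 and 6.83 CPM in control hearts. Means of Cyp1a1 were 7.91 ± 2.82 CPM in tumour trained, 11.1 ± 12.5 CPM in tumour, 12.1 ± 1.03 CPM in trained and 4.67 ± 2.28 CPM in control hearts (SD, n = 3 each). Tumour 3 was the highest library and tumour 1 the lowest, and all trained libraries were above all control libraries. The interaction of Cyp1a1 was -3.04 ± 0.51 with tumour 3 alone (SE, edgeR adjusted p = 0.0413), made up of -1.66 for tumour trained minus tumour 3 and 1.38 for trained minus control. Neither of its components was called alone (edgeR adjusted p = 0.087 and 0.434). Mgst1 is a glutathione transferase of intracellular membranes. Mgst1 (gene ID 56615) had 47.8, 50.7 and 52.3 CPM in the tumour trained libraries and 38.8, 80.7 and 107 CPM in the tumour libraries. Mgst1 stood at 40.5, 40.8 and 40.5 CPM in trained hearts and 40.2, 47.99 and 44.3 CPM in control hearts. Means of Mgst1 were 50.3 ± 2.26 CPM in tumour trained, 75.4 ± 34.3 CPM in tumour, 40.6 ± 0.143 CPM in trained and 44.2 ± 3.89 CPM in control hearts (SD, n = 3 each). Tumour 2 and 3 were above and tumour 1 below the 9 others. The interaction of Mgst1 was -0.98 ± 0.16 with tumour 3 alone (SE, edgeR adjusted p = 0.0366), made up of -1.10 for tumour trained minus tumour 3 and -0.12 for trained minus control. With tumour 3 alone, the 27 tested oxidative stress and NRF2 genes had a median of -0.18. Without tumour 3, edgeR called 3 of 28 higher and 6 lower, where 12.4% of all genes were higher and 17.7% lower.

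Fah catalyses the last step of tyrosine breakdown. Fah (gene ID 14085) read 32.7, 30.4 and 29.8 CPM in tumour trained 1, 2 and 3, and 26.6, 25.4 and 81.1 CPM in tumour 1, 2 and 3. For Fah, trained hearts gave 25.7, 33.7 and 29.3 CPM and control hearts 24.6, 29.98 and 29.4 CPM. Means of Fah were 30.98 ± 1.55 CPM in tumour trained, 44.4 ± 31.8 CPM in tumour, 29.6 ± 4.04 CPM in trained and 28.01 ± 2.96 CPM in control hearts (SD, n = 3 each). Tumour 3 stood alone above the rest. The interaction of Fah was -1.49 ± 0.21 with tumour 3 alone (SE, edgeR adjusted p = 0.0181), made up of -1.41 for tumour trained minus tumour 3 and 0.08 for trained minus control. Glul is glutamine synthetase, which joins ammonia to glutamate. Glul (gene ID 14645) was measured at 608, 716 and 641 CPM in tumour trained hearts and at 322, 757 and 1335 CPM in tumour hearts. Its values were 574, 604 and 582 CPM in trained hearts and 687, 588 and 615 CPM in control hearts. Means of Glul were 655 ± 55.3 CPM in tumour trained, 805 ± 508 CPM in tumour, 587 ± 15.6 CPM in trained and 630.1 ± 51.2 CPM in control hearts (SD, n = 3 each). Tumour 3 and, by less, tumour 2 were above the 9 others, and tumour 1 was below them. The interaction of Glul was -0.94 ± 0.15 with tumour 3 alone (SE, edgeR adjusted p = 0.0357), made up of -1.04 for tumour trained minus tumour 3 and -0.10 for trained minus control. Car4 is a carbonic anhydrase anchored on the cell surface. Car4 (gene ID 12351) had 28.9, 29.02 and 20.8 CPM in the tumour trained libraries and 20.04, 24.6 and 82.2 CPM in the tumour libraries. Car4 stood at 26.02, 26.3 and 25.7 CPM in trained hearts and 29.5, 29.98 and 30.3 CPM in control hearts. Means of Car4 were 26.3 ± 4.70 CPM in tumour trained, 42.3 ± 34.7 CPM in tumour, 26.02 ± 0.266 CPM in trained and 29.9 ± 0.400 CPM in control hearts (SD, n = 3 each). Tumour 3 alone was high. The interaction of Car4 was -1.46 ± 0.21 with tumour 3 alone (SE, edgeR adjusted p = 0.0203), made up of -1.66 for tumour trained minus tumour 3 and -0.20 for trained minus control. Acer2 is a ceramidase of the Golgi apparatus. Acer2 (gene ID 230379) read 29.1, 34.1 and 38.7 CPM in tumour trained 1, 2 and 3, and 30.2, 59.02 and 87.5 CPM in tumour 1, 2 and 3. For Acer2, trained hearts gave 43.9, 25.8 and 33.6 CPM and control hearts 29.4, 22.8 and 25.97 CPM. Means of Acer2 were 33.98 ± 4.79 CPM in tumour trained, 58.9 ± 28.6 CPM in tumour, 34.5 ± 9.06 CPM in trained and 26.05 ± 3.31 CPM in control hearts (SD, n = 3 each). Tumour 2 and 3 were above all 9 others and tumour 1 lay among them. The interaction of Acer2 was -1.78 ± 0.30 with tumour 3 alone (SE, edgeR adjusted p = 0.0434), made up of -1.38 for tumour trained minus tumour 3 and 0.40 for trained minus control.

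Spock2, Syt12, Tacc2 and Tcf23 complete the genes that were lower. Spock2 encodes a proteoglycan of the extracellular matrix. Spock2 (gene ID 94214) was measured at 17.7, 14.9 and 12.2 CPM in tumour trained hearts and at 22.7, 26.4 and 74.6 CPM in tumour hearts. Its values were 12.01, 13.4 and 10.6 CPM in trained hearts and 11.97, 13.3 and 15.4 CPM in control hearts. Means of Spock2 were 14.9 ± 2.77 CPM in tumour trained, 41.2 ± 28.9 CPM in tumour, 12.03 ± 1.40 CPM in trained and 13.6 ± 1.70 CPM in control hearts (SD, n = 3 each). All 3 tumour libraries were above the rest, with tumour 3 far above tumour 1 and 2. The interaction of Spock2 was -2.17 ± 0.26 with tumour 3 alone (SE, edgeR adjusted p = 0.00733), made up of -2.33 for tumour trained minus tumour 3 and -0.17 for trained minus control. Syt12 encodes a member of the synaptotagmin family of membrane trafficking proteins. Syt12 (gene ID 171180) had 3.17, 4.10 and 3.16 CPM in the tumour trained libraries and 4.31, 11.4 and 20.95 CPM in the tumour libraries. Syt12 stood at 4.83, 4.68 and 3.30 CPM in trained hearts and 3.73, 3.99 and 3.79 CPM in control hearts. Means of Syt12 were 3.47 ± 0.541 CPM in tumour trained, 12.2 ± 8.35 CPM in tumour, 4.27 ± 0.844 CPM in trained and 3.84 ± 0.136 CPM in control hearts (SD, n = 3 each). Tumour 2 and 3 were above all 9 others, and tumour 1 lay among them. The interaction of Syt12 was -2.76 ± 0.31 with tumour 3 alone (SE, edgeR adjusted p = 0.00452), made up of -2.61 for tumour trained minus tumour 3 and 0.15 for trained minus control. Tacc2 encodes a coiled-coil protein that binds microtubules. Tacc2 (gene ID 57752) read 401, 529 and 426 CPM in tumour trained 1, 2 and 3, and 473, 659 and 1449 CPM in tumour 1, 2 and 3. For Tacc2, trained hearts gave 415, 451 and 371 CPM and control hearts 523, 523 and 523 CPM. Means of Tacc2 were 452 ± 67.7 CPM in tumour trained, 860.4 ± 519 CPM in tumour, 413 ± 40.1 CPM in trained and 523 ± 0.222 CPM in control hearts (SD, n = 3 each). Tumour 2 and 3 were above the other groups, and the control libraries were almost equal. The interaction of Tacc2 was -1.36 ± 0.19 with tumour 3 alone (SE, edgeR adjusted p = 0.0178), made up of -1.70 for tumour trained minus tumour 3 and -0.34 for trained minus control. Tcf23 encodes a transcription factor of the basic helix-loop-helix family. Tcf23 (gene ID 69852) was measured at 3.06, 4.85 and 3.47 CPM in tumour trained hearts and at 4.85, 6.61 and 13.3 CPM in tumour hearts. Its values were 4.12, 3.38 and 2.98 CPM in trained hearts and 3.16, 2.53 and 2.21 CPM in control hearts. Means of Tcf23 were 3.80 ± 0.939 CPM in tumour trained, 8.25 ± 4.46 CPM in tumour, 3.49 ± 0.579 CPM in trained and 2.63 ± 0.484 CPM in control hearts (SD, n = 3 each). The top library was tumour 3 and tumour 2 came next. The interaction of Tcf23 was -2.22 ± 0.37 with tumour 3 alone (SE, edgeR adjusted p = 0.0413), made up of -1.82 for tumour trained minus tumour 3 and 0.40 for trained minus control.

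Of the 6 genes that were higher, Itgb6 was the one also called without tumour 3. It encodes the beta-6 integrin chain, which pairs with the alpha-v chain to bind and activate latent TGF-beta. Itgb6 (gene ID 16420) had 18.4, 17.7 and 23.7 CPM in the tumour trained libraries and 0.718, 6.33 and 3.88 CPM in the tumour libraries. Itgb6 stood at 20.4, 16.2 and 20.9 CPM in trained hearts and 14.2, 16.9 and 18.9 CPM in control hearts. Means of Itgb6 were 19.9 ± 3.28 CPM in tumour trained, 3.64 ± 2.82 CPM in tumour, 19.1 ± 2.55 CPM in trained and 16.7 ± 2.39 CPM in control hearts (SD, n = 3 each). The 3 tumour libraries were the lowest of all, tumour 1 most of all, and the tumour trained libraries were within or above the tumour-free range. The interaction of Itgb6 was 2.15 ± 0.33 with tumour 3 alone (SE, edgeR adjusted p = 0.0285), made up of 2.34 for tumour trained minus tumour 3 and 0.20 for trained minus control. Itgb6 was at 2.36 ± 0.70 (edgeR adjusted p = 0.0285) without tumour 3. Ppp1r14c encodes an inhibitor of protein phosphatase 1. Ppp1r14c (gene ID 76142) read 246, 241 and 250.3 CPM in tumour trained 1, 2 and 3, and 37.7, 164 and 129.97 CPM in tumour 1, 2 and 3. For Ppp1r14c, trained hearts gave 238, 238 and 238 CPM and control hearts 234, 254 and 227 CPM. Means of Ppp1r14c were 246 ± 4.63 CPM in tumour trained, 111 ± 65.4 CPM in tumour, 238 ± 0.03 CPM in trained and 238 ± 13.9 CPM in control hearts (SD, n = 3 each). The tumour libraries were again the lowest, and the 9 others lay between 227 and 254 CPM. The interaction of Ppp1r14c was 0.91 ± 0.14 with tumour 3 alone (SE, edgeR adjusted p = 0.0249), made up of 0.90 for tumour trained minus tumour 3 and -0.00 for trained minus control.

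Ccl21a encodes a chemokine that guides lymphocytes and dendritic cells through its receptor CCR7, and has near-identical copies in the mouse genome. Ccl21a (gene ID 18829) was measured at 27.5, 31.3 and 35.04 CPM in tumour trained hearts and at 12.1, 29.999 and 2.86 CPM in tumour hearts. Its values were 41.2, 45.8 and 48.5 CPM in trained hearts and 42.99, 37.1 and 34.9 CPM in control hearts. Means of Ccl21a were 31.3 ± 3.79 CPM in tumour trained, 14.98 ± 13.8 CPM in tumour, 45.2 ± 3.69 CPM in trained and 38.3 ± 4.18 CPM in control hearts (SD, n = 3 each). Tumour 3 was the lowest library, tumour 1 the next lowest, and tumour 2 lay among the tumour trained libraries. The interaction of Ccl21a was 3.19 ± 0.28 with tumour 3 alone (SE, edgeR adjusted p = 0.000454), made up of 3.43 for tumour trained minus tumour 3 and 0.24 for trained minus control. Col15a1 encodes a collagen of the basement membrane zone. Col15a1 (gene ID 12819) had 85.7, 72.9 and 101 CPM in the tumour trained libraries and 73.999, 157 and 27.1 CPM in the tumour libraries. Col15a1 stood at 115, 155 and 117 CPM in trained hearts and 152, 135 and 119 CPM in control hearts. Means of Col15a1 were 86.5 ± 13.96 CPM in tumour trained, 86.2 ± 65.96 CPM in tumour, 129 ± 22.9 CPM in trained and 135 ± 16.8 CPM in control hearts (SD, n = 3 each). The lowest level was in tumour 3, and tumour 2 was the highest. The interaction of Col15a1 was 1.72 ± 0.29 with tumour 3 alone (SE, edgeR adjusted p = 0.0413), made up of 1.66 for tumour trained minus tumour 3 and -0.07 for trained minus control. On a list of 32 matrix and TGF-beta genes it was the 1 called with tumour 3 alone, and the list's median was 0.31. Without tumour 3 the list had 16 lower and 0 higher genes and a median of -0.76, against 17.7% lower and 12.4% higher over all genes.

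Lonrf1 encodes a protein with a RING finger and a LON domain. Lonrf1 (gene ID 244421) read 11.4, 11.8 and 13.2 CPM in tumour trained 1, 2 and 3, and 18.2, 9.26 and 5.54 CPM in tumour 1, 2 and 3. For Lonrf1, trained hearts gave 6.71, 5.72 and 6.92 CPM and control hearts 10.2, 8.66 and 11.1 CPM. Means of Lonrf1 were 12.1 ± 0.925 CPM in tumour trained, 11.01 ± 6.53 CPM in tumour, 6.45 ± 0.637 CPM in trained and 10.02 ± 1.26 CPM in control hearts (SD, n = 3 each). The lowest library was tumour 3, and the trained libraries came next. The interaction of Lonrf1 was 1.75 ± 0.28 with tumour 3 alone (SE, edgeR adjusted p = 0.0347), made up of 1.11 for tumour trained minus tumour 3 and -0.64 for trained minus control. Bhlhe40 encodes a repressor that dampens the circadian clock. Bhlhe40 (gene ID 20893) was measured at 68.7, 61.8 and 60.5 CPM in tumour trained hearts and at 177, 136 and 55.3 CPM in tumour hearts. Its values were 39.3, 36.3 and 48.4 CPM in trained hearts and 88.8, 82.9 and 87.3 CPM in control hearts. Means of Bhlhe40 were 63.7 ± 4.42 CPM in tumour trained, 123 ± 61.9 CPM in tumour, 41.4 ± 6.29 CPM in trained and 86.3 ± 3.03 CPM in control hearts (SD, n = 3 each). Here tumour 3 lay within the range of the other groups, tumour 1 and 2 lay above all of them, and the trained libraries were all below the rest. The interaction of Bhlhe40 was 1.25 ± 0.20 with tumour 3 alone (SE, edgeR adjusted p = 0.0366), made up of 0.19 for tumour trained minus tumour 3 and -1.06 for trained minus control. It was the only gene of all 12995 called for trained minus control (0.0077%, edgeR adjusted p = 0.0207). Among the 32 genes it was also the only one whose difference without melanoma was the larger, as it was in 29.6% of all genes. Bhlhe40 belongs to a list of 20 tested clock genes, whose median interaction was 0.29 with tumour 3 alone. Without tumour 3, edgeR called 9 of the 20 higher and 1 lower, where 12.4% of all genes were higher and 17.7% lower. Scaled to the cardiomyocyte list, the counts were 0 higher and 7 lower, where 74.8% of all genes were lower.

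Several features ran across the 32 genes, and since they follow in part from how an interaction is built they are given as description. For 28 of the 32, tumour trained minus tumour 3 was called, as for 0.716% of all genes, and the 4 others were Angptl4, Bhlhe40, Cyp1a1 and Lonrf1. Tumour 3 minus control was called for 30 of the 32, as for 1.4% of all genes, and the exceptions were Bhlhe40 and Lonrf1. The difference between tumour trained and trained hearts ran from -1.76 to 0.91 over the 32 genes. Among the 26 genes that were lower, tumour 3 was above all 9 libraries of the other groups for 25 (15.6% of all genes), with Angptl4 as the exception. Tumour 1 was above them for 10 (41.1% of all genes), tumour 2 for 17 (33.1%) and all 3 for 9 (5.13%). Of the 6 that were higher, tumour 3 was below the 9 others for 5 (12.3%), tumour 1 for 3 (36.7%), tumour 2 for 2 (23.9%) and all 3 tumour libraries for 2 (4.28%).

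Those positions depended on the scaling of tumour 1 and 2. Scaled to the cardiomyocyte list, the median log2 ratio to the mean of the 9 other libraries was 2.44 in tumour 1, 0.97 in tumour 2 and 0.04 in tumour 3. With TMM these medians over all tested genes were 0.05, 0.02 and -0.02. On that scale all 3 tumour libraries were above the 9 others for 25 of the 26 lower genes, and for 19.8% of all genes. Tumour 1 was then above the 9 others for 93.6% of all genes and tumour 2 for 83.2%, so the scale by itself puts most genes there. Tumour 3 was above them for 21.3%. Without tumour 3, and with TMM, 23 of the 32 genes kept the sign they had with tumour 3 alone.

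**Figure D4:**
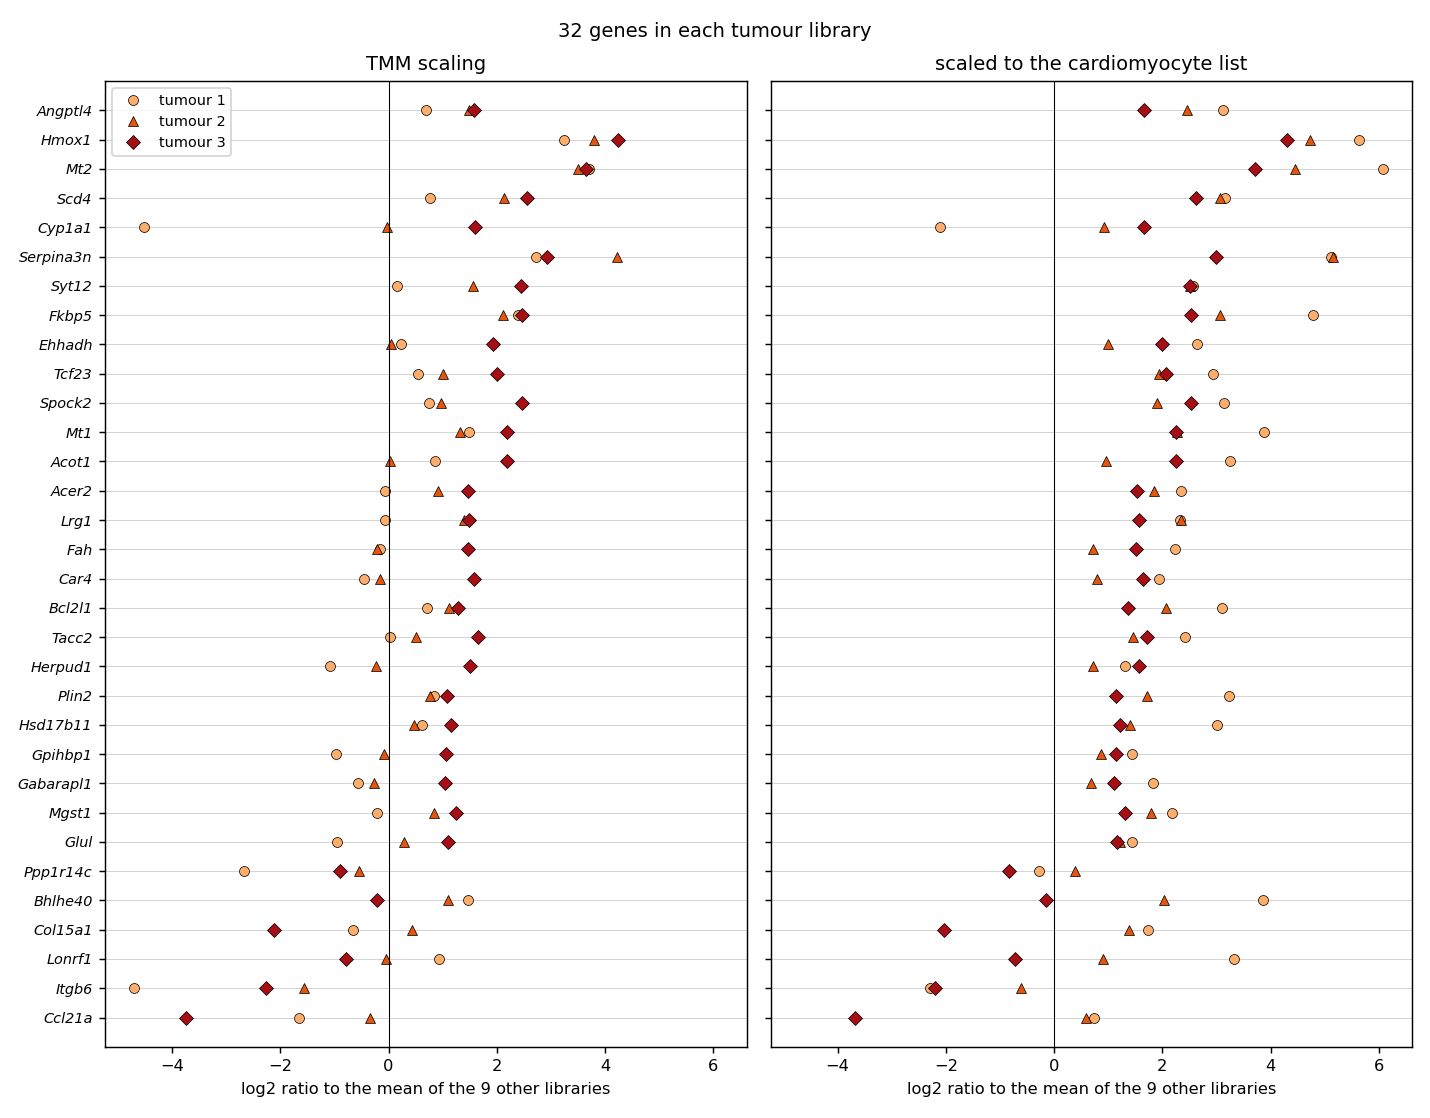
Log2 ratio of each tumour library to the mean of the 9 other libraries for the 32 genes, on the TMM scale at left and scaled to the cardiomyocyte list at right. At left tumour 3 (dark red diamonds) is the farthest from 0 for most genes, and at right tumour 1 (light circles) moves up. Over all tested genes the median ratio of tumour 1 was 0.05 on the TMM scale and 2.44 on the cardiomyocyte scale.

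Genes that follow the melanoma RNA of tumour 1 and 2 were a separate and far larger set. Without tumour 3 the interaction was called in 4002 of 13289 genes (30.1%), 1654 higher (12.4%) and 2348 lower (17.7%). The count was 7517 without tumour 2 and lowest, at 2540, without tumour trained 2. It was 2605 without tumour trained 1, 2585 without tumour trained 3, 2629 without control 2 and 2628 without control 3. Of the 4002, 1423 met the full rule for following tumour 1 and 2. They had an interaction smaller than 0.5 in size that was not called with tumour 3 alone, and their distance from the 9 other libraries decreased from tumour 1 over tumour 2 to tumour 3 on the same side. The rule sets this order, so the order is no result. A further 11 were called with tumour 3 as well, and 2568 met neither rule. Of the 4002 genes, 740 had an interaction of at least 0.5 in size with tumour 3 alone, and 222 were not tested there.

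In 737 of the 1423 genes the interaction was lower. Their median was -1.25 without tumour 3 and -0.18 with tumour 3 alone, and tumour 1, 2 and 3 were 1.58, 0.92 and 0.13 log2 units above the mean of the 9 others at the median. Gpnmb, a glycoprotein of pigment cells and macrophages, had the largest of the 10 named in this direction. Gpnmb (gene ID 93695) had 1.90, 1.51 and 1.89 CPM in the tumour trained libraries and 3029, 1588 and 4.15 CPM in the tumour libraries. Gpnmb stood at 1.06, 2.26 and 2.23 CPM in trained hearts and 3.35, 3.41 and 2.84 CPM in control hearts. Means of Gpnmb were 1.77 ± 0.224 CPM in tumour trained, 1540.1 ± 1513 CPM in tumour, 1.85 ± 0.684 CPM in trained and 3.20 ± 0.313 CPM in control hearts (SD, n = 3 each). Tumour 3 was just above the 9 others and far below tumour 1 and 2. Its interaction was -9.54 without tumour 3 and -0.48 with tumour 3 alone. Hmmr, Anln and Kif4, which serve cell division, had -5.79, -5.68 and -5.22. Anln stood at 0.634, 1.62 and 2.63 CPM in tumour trained hearts, 125, 52.1 and 1.75 CPM in tumour hearts, 2.24, 0.954 and 1.28 CPM in trained hearts and 2.01, 1.27 and 1.16 CPM in control hearts. Thus tumour 3 was as low as the tumour-free libraries. Lgals3, the lectin galectin-3, had -5.62, Emb, a cell adhesion protein of the immunoglobulin family, -5.30, and Kif21b, a kinesin motor, -5.20. The complement component C2, the prostaglandin D synthase Hpgds and the zinc finger factor Plagl1 lay between -5.05 and -4.73.

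In the other 686 genes the interaction was higher. Their median was 1.17 without tumour 3 and 0.13 with tumour 3 alone, and tumour 1, 2 and 3 were at -1.58, -0.78 and -0.13 relative to the 9 others. Lgi3, a secreted leucine-rich protein, was first with 3.51. Armc2 and Ackr3 serve as examples. Armc2 gave 60.7, 60.5 and 70.3 CPM in tumour trained hearts, 10.2, 18.03 and 55.6 CPM in tumour hearts, 66.2, 67.1 and 60.6 CPM in trained hearts and 75.3, 63.8 and 71.3 CPM in control hearts. Ackr3, a scavenging receptor for chemokines, had 105, 129.8 and 116 CPM in tumour trained hearts, 17.6, 45.2 and 108 CPM in tumour hearts, 118, 149 and 119.8 CPM in trained hearts and 134, 166 and 197 CPM in control hearts. Tumour 1 and 2 were the low libraries for both, and tumour 3 lay just below or among the tumour trained ones. Grin2c, a subunit of NMDA receptors, the photopigment Opn4, Meig1, the transcription factor Tcf15, Lingo3, the crystallin Cryba4 and the chloride channel Clcn1 made up the rest, with interactions from 2.28 to 2.75. Scaling to the cardiomyocyte list without tumour 3 left 27 higher and 9939 lower genes over all tested, so at most 27 of the 686 were still called higher on that scale.

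**Figure D5:**
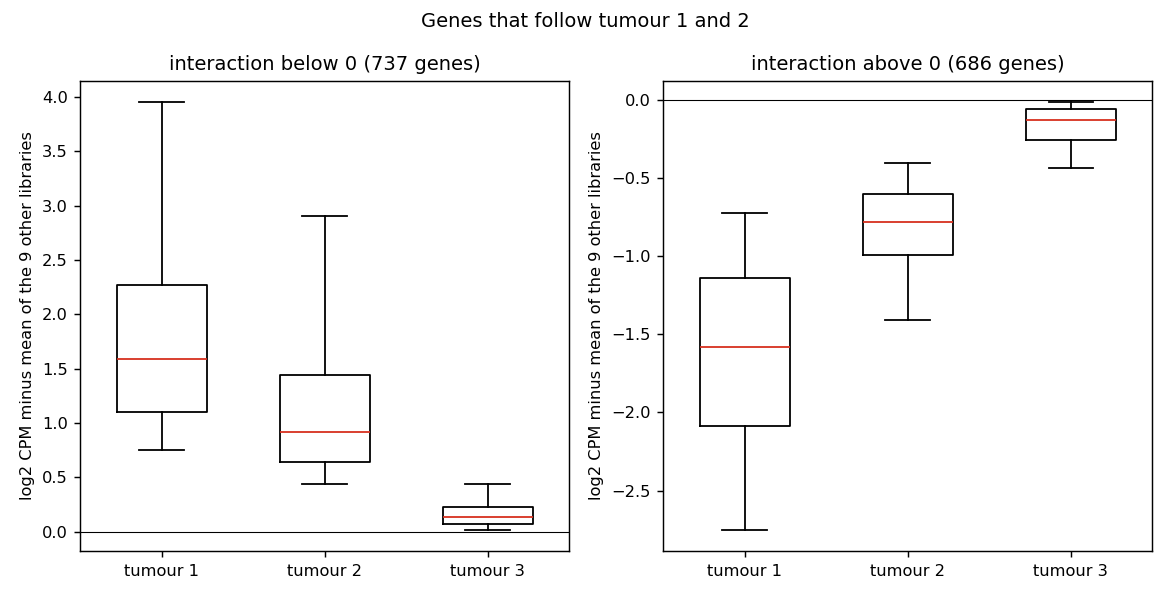
Log2 CPM of each tumour library minus the mean of the 9 other libraries for the genes that follow tumour 1 and 2, with the 737 lower genes at left and the 686 higher genes at right. Boxes span the quartiles with the median in red, whiskers reach the 5th and 95th percentiles, and the medians run 1.58, 0.92 and 0.13 at left and -1.58, -0.78 and -0.13 at right, an order the rule sets.

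Lists for cell division and for the heart's own genes had other medians without tumour 3 than with tumour 3 alone. Over all genes 17.7% were lower and 12.4% higher without tumour 3, with a median of -0.08, and the median was -1.88 when scaled to the cardiomyocyte list. Of 30 tested cell cycle genes, 28 were lower without tumour 3, with a median of -5.32, which was -7.43 on the cardiomyocyte scale. With tumour 3 alone the median of 27 was -0.06, none passed with edgeR or DESeq2, and 1 had an unadjusted p below 0.05. Of 38 oxidative phosphorylation genes, 36 were higher without tumour 3, with a median of 1.15, which turned to -0.43 when scaled to the cardiomyocyte list, where 74.8% of all genes and 3 of these 38 were lower. With tumour 3 alone their median was -0.11, and none passed with edgeR or DESeq2 or had an unadjusted p below 0.05. Of 24 sarcomere genes, 7 were higher and 1 lower without tumour 3. They had medians of 1.17 without tumour 3 (-0.30 when scaled to the cardiomyocyte list) and -0.07 with tumour 3 alone, where 0 passed with edgeR, 1 with DESeq2 and 1 at an unadjusted p below 0.05. Ion channel genes had 1.33 and 0.03, and the first of these turned to -0.12 on the cardiomyocyte scale.

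No gene was called on the remaining pathway lists with tumour 3 alone. Their median interactions were 0.14 for 19 calcium handling genes, 0.04 for 18 adrenergic and cAMP genes, 0.33 for 20 growth and angiogenic ligands and 0.05 for 18 p53 and growth arrest genes. They were 0.15 for 22 interferon and antigen presentation genes, 0.45 for 14 genes of natriuretic peptides and cardiac load, and 0.85 for 28 immediate early genes. The median over all genes was -0.00 in that fit. Some members of these lists had an unadjusted p below 0.05 or were called by DESeq2. With 1 tumour library in the fit, these are not read as results about the lists. Fgf16, a growth factor made by cardiomyocytes and a ligand on the list just named, had 25.1, 21.4 and 21.05 CPM in tumour trained hearts, 1.91, 9.54 and 6.37 CPM in tumour hearts, 21.7, 22.8 and 22.9 CPM in trained hearts and 14.7, 19.4 and 18.1 CPM in control hearts. All 3 tumour libraries were below the other 9, and its interaction of 1.44 ± 0.25 with tumour 3 alone just missed the threshold.

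Markers of other cell types were read in the same libraries, as sums on the plain library total. Fibroblast genes gave 966 CPM for tumour 3, 1319 CPM for tumour 1 and 2208 CPM for tumour 2, and the 9 other libraries ranged from 841 to 1213 CPM. For macrophage genes the sums were 365 CPM for tumour 3, 537 CPM for tumour 1 and 804 CPM for tumour 2, with 350.2 to 497 CPM in the 9 others. Neutrophil genes reached 7.43 CPM for tumour 3, 4.57 CPM for tumour 1 and 22.4 CPM for tumour 2, with 1.76 to 6.31 CPM in the 9 others. Smooth muscle and pericyte genes were at 1174 CPM for tumour 3, 575 CPM for tumour 1 and 1039 CPM for tumour 2, with 1059 to 1668 CPM in the 9 others. What these cells contributed to the interaction of any gene was not tested.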

How the data were processed

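Heart RNA of 12 libraries was sequenced. Reads were processed with HISAT2 2.2.1 and featureCounts, with both GRCm39 and mm10 named as builds, per the submitters' processing notes. The authors deposited one table of estimated counts per gene for 17397 genes and 12 libraries, not normalized, of which 7.09% to 8.92% per library were not whole. The sources used here do not give the strand setting, annotation or filters. The estimated counts were rounded to whole numbers, filtered with filterByExpr and tested with edgeR 4.0.16 (quasi-likelihood, TMM) in R 4.3.3, with DESeq2 1.42.0 as an alternative. Symbols turned to dates were restored for 24 genes from RefSeq. The 3 fits used 12 libraries, tumour 3 alone and without tumour 3. Genes following tumour 1 and 2 were called without tumour 3, not called and under 0.5 in size with tumour 3 alone, and ordered tumour 1, 2, 3. Named genes were up to 10 per set and direction by size of interaction (mean log2 CPM of at least 1), up to 4 per list by p with tumour 3 alone and a panel, and the others called with tumour 3 alone or next to the threshold were added to account for all. The members and lists were chosen with earlier results of these data known. The deepest and shallowest libraries held 13344847 and 8843909 counts, where 3 counts equal 0.225 and 0.339 CPM. Intervals and floors cover counting error only. No replicates agreed within sampling noise. The edgeR interaction test of each fit was run on simulated counts, drawn from a common mean per gene and the fitted spread. The simulated libraries held no melanoma RNA. DESeq2, the component differences and the cardiomyocyte scaling were not simulated.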

Additional observations from a re-analysis of the deposited data

Results flagged for a closer look

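Each result here was singled out because the difference between trained and untrained hearts was itself tested for a difference between mice with and without melanoma. The number of genes past that test was 3 with 12 libraries, 32 with tumour 3 alone and 4002 without tumour 3. With 12 libraries the log2 interactions were -2.20 for Fkbp5, -3.63 for Hmox1 and -3.31 for Mt2. With tumour 3 alone, the lower ones were -1.78 for Acer2, -2.01 for Acot1, -4.48 for Angptl4, -1.45 for Bcl2l1, -1.46 for Car4, -3.04 for Cyp1a1, -2.27 for Ehhadh, -1.49 for Fah, -2.36 for Fkbp5, -1.05 for Gabarapl1, -0.94 for Glul, -1.18 for Gpihbp1, -1.27 for Herpud1, -4.07 for Hmox1, -1.21 for Hsd17b11, -1.60 for Lrg1, -0.98 for Mgst1, -2.12 for Mt1, -3.36 for Mt2, -1.25 for Plin2, -3.14 for Scd4, -2.80 for Serpina3n, -2.17 for Spock2, -2.76 for Syt12, -1.35 for Tacc2 and -2.22 for Tcf23. The higher ones with tumour 3 alone were 1.25 for Bhlhe40, 3.19 for Ccl21a, 1.72 for Col15a1, 2.15 for Itgb6, 1.75 for Lonrf1 and 0.91 for Ppp1r14c. Positive values mean that trained minus untrained was higher with melanoma than without.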

How the results depend on the processing

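With 12 libraries the count of 3 genes was 314 with DESeq2, 5 with library size alone, 1 scaled to the cardiomyocyte list, 32 without tumour 1 and 2, and 2 to 4002 when 1 library was left out. With tumour 3 alone the count of 32 was 101 with DESeq2, 52 with no filter on low counts and 8 to 133 when 1 library was left out. Without tumour 3 the count of 4002 was 9966 scaled to the cardiomyocyte list, of which 27 were higher, and 2540 to 7517 when 1 library was left out. Library size alone gave 903 higher and 3855 lower there. Herpud1 reversed with 12 libraries, from -0.65 without tumour 1 to 0.87 without tumour 3. The cause of these shifts was not tested. Replicate numbers were shared between groups, but correlations of same-numbered libraries ran from -0.27 to 0.24, so the numbers are not treated as pairs. With the replicate block the 3 fits called 2, 15 and 3395 genes, and 13 of the 15 were among the 32. Among values of single genes, 877 kept direction and side of the threshold with tumour 3 alone, 162 no longer passed and 11 newly passed. With 12 libraries 1187 kept both, 11 no longer passed, 82 newly passed and 1 reversed. These are counts of pairs of a gene and an alternative setting, so a gene can enter many times and they are not numbers of genes. Tumour 3 was the only tumour library with a low melanocyte gene share (0.00166%). That share was still above that of every library of the other groups. A single such library limits every result on tumour 3, since its spread is borrowed from the other groups.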

Other observations

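Fosb and Atf3 are immediate early genes, which cells switch on soon after a stimulus, and both were high in control 2 and 3. Fosb, a subunit of AP-1, was at 2.11, 3.99 and 2.53 CPM in tumour trained hearts, 1.91, 1.74 and 0.831 CPM in tumour hearts, 1.06, 1.39 and 2.02 CPM in trained hearts and 0.862, 33.97 and 38.2 CPM in control hearts. Atf3, a stress-induced factor, showed 7.71, 71.7 and 12.5 CPM in tumour trained hearts, 22.6, 20.8 and 21.3 CPM in tumour hearts, 4.12, 7.63 and 13.8 CPM in trained hearts and 8.04, 370.1 and 348 CPM in control hearts. Control 1 was low for both. For the 28 tested immediate early genes the median interaction was 0.85 with tumour 3 alone, and the median of trained minus control was -0.96. Over all genes these medians were -0.00 and 0.01. No gene of the list passed with edgeR.

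Dbp and Nr1d2, genes of the circadian clock, were high in the tumour trained group. Dbp, a factor under direct control of the clock, was at 119, 52.4 and 57.03 CPM in tumour trained hearts, 6.34, 8.28 and 18.5 CPM in tumour hearts, 21.4, 9.71 and 38.4 CPM in trained hearts and 28.8, 8.96 and 9.36 CPM in control hearts. Nr1d2, the repressor REV-ERB beta, was at 154, 147 and 151 CPM in tumour trained hearts, 42.1, 53.7 and 61.3 CPM in tumour hearts, 85.8, 38.8 and 109 CPM in trained hearts and 64.9, 48.8 and 40.6 CPM in control hearts. The tumour trained libraries were above the 9 others for both, yet neither interaction was called with tumour 3 alone (edgeR adjusted p = 0.731 for Dbp and 0.777 for Nr1d2). The 20 tested clock genes had a median of 0.21 for tumour trained minus tumour 3. Without tumour 3 the interaction was higher for 9 of them, Dbp included, and lower for 1, Bhlhe41. Over all genes 12.4% were higher and 17.7% lower there. Scaled to the cardiomyocyte list, 0 of the 20 were higher and 7 lower, with a median of -0.68. On that scale 0.203% of all genes were higher and 74.8% lower. The hour at which hearts were taken is not given in the sources used here.

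The 9 erythrocyte genes, globins among them, had a median interaction of -0.98 with tumour 3 alone and a median of 1.00 for trained minus control. Their summed level was 892 to 3113 CPM in tumour trained hearts, 623 to 1925 CPM in tumour hearts, 1513 to 3359 CPM in trained hearts and 614 to 1579 CPM in control hearts, so the groups overlapped. None passed with edgeR or DESeq2 or had an unadjusted p below 0.05. Reads of the near-identical globin genes may be divided between copies.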
